A study of Homo sapiens with 8 samples.

Results

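Vascular endothelial growth factor (VEGF) and the class 3 semaphorins are secreted ligands that meet at shared co-receptors, and 10 genes of this signalling system were followed in 2 histone marks. They are the VEGF receptors FLT1 and KDR, the ligand VEGFA, the neuropilins NRP1 and NRP2, the semaphorins SEMA3A, SEMA3C and SEMA3F, and the plexins PLXNA1 and PLXND1. The genes were taken by name, with earlier results of these data known. Shares and percentiles set against all genes therefore describe a chosen set and test no enrichment. All 10 were found among the 20136 protein-coding genes of the annotation. The peaks came from 8 CUT&Tag libraries of HCT15, a human cell line that was established from a colorectal cancer. In this assay a transposase tethered by an antibody cuts the chromatin next to the modified histone, and the released fragments are sequenced. H3K23su, a succinyl group on a lysine of histone H3, and H3K27ac, an acetyl group often found at active promoters and enhancers, were each profiled with 2 libraries from HCT15-Pa, the parental line, and 2 from HCT15-FR, a line that resists the pyrimidine analog 5-fluorouracil (5-FU). The sample labels give DMSO as the treatment of HCT15-Pa and 20 μg/mL 5-FU as that of HCT15-FR. The methods state that HCT15-FR cells spent some days in drug-free medium before experiments. All 4 groups share the HCT15 background, the resistant state is represented by a single derived line, and the labels do not say whether replicates were separate cultures, so spreads and P values cover the difference between these libraries, which may be technical.

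VEGFA binds FLT1 and KDR on the surface of endothelial cells, where KDR carries most of the signal for growth and FLT1 binds the ligand tightly. Neuropilins have no catalytic domain of their own. They hold VEGFA for its receptor and also hold class 3 semaphorins for the plexins, which pass the signal to the cytoskeleton and can make a growing axon or a migrating cell turn away. Colorectal tumour cells can make VEGFA and semaphorins and can also carry neuropilins themselves.

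Each deposited list gives the position of a peak and the −log10 of its peak-calling P value, here called the score, which was also expressed as a percentile within its own list because a score depends on the depth of its library. The H3K23su lists held between 65364 and 68365 peaks, and the H3K27ac lists between 70600 and 76676. The lists hold no read counts, so the depth behind a peak is unknown, and a missing peak means only that none was called. The HCT15-FR lists covered 1.19 times as many bases as the HCT15-Pa lists in both marks, which sets the level against which the genes have to be read. The labelled cell type was checked by peaks within 2 kb of the transcription start site (TSS). In H3K27ac, 6 of 8 markers of colon epithelium had such a peak in all 4 libraries, and the other 2, KRT20 and CDX1, had it in the HCT15-FR libraries only. In H3K23su, 5 of the 8 had it in all 4 libraries. CDX1 had it in the HCT15-FR libraries only, and KRT20 and CDX2 in 1 HCT15-FR library each. Of the endothelial markers, 7 of 8 were matched to the annotation. TEK, TIE1, VWF and EMCN had no TSS peak in any list of either mark. ESAM had both marks in all 4 libraries, and ROBO4 had H3K27ac in all 4 and H3K23su in 1 HCT15-Pa library. CDH5 had H3K27ac in 1 HCT15-FR library and H3K23su in 1 HCT15-Pa library. The fibroblast markers COL3A1, PDGFRB, LUM and DCN had none, and COL1A1 had H3K27ac in all 4 libraries and H3K23su in 3.

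At the promoters, H3K27ac was called in both lines at the same 8 genes, whereas H3K23su was called at FLT1, NRP2 and SEMA3F in HCT15-FR alone. An H3K27ac peak lay within 2 kb of the TSS in all 4 libraries at 8 of the 10 genes, against 59.0% of all protein-coding genes. Of H3K27ac TSS peaks found in both HCT15-FR lists and neither HCT15-Pa list, called FR-only from here on, there were 0 among the 10 genes, and the same held for the reverse pattern, called Pa-only. These patterns were found at 1.42% and 2.19% of all genes. For H3K23su, 5 of the 10 genes, namely VEGFA, NRP1, SEMA3A, SEMA3C and PLXNA1, had a TSS peak in all 4 libraries, against 54.7% of all genes. FLT1, NRP2 and SEMA3F had an FR-only H3K23su TSS peak, 3 of 10 genes, where 1.87% of all genes had one. None of the 10 was Pa-only in this sense, against 1.71% of all genes. The genes were chosen with earlier results known, so these shares are descriptive. With only the stronger 50% of each list, SEMA3F alone remained FR-only in H3K23su. By library, 6 and 6 of the genes had an H3K23su TSS peak in HCT15-Pa and 9 and 8 in HCT15-FR, while the share among all genes was between 60.0% and 60.8% in the 4 libraries.

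**Figure D1:**
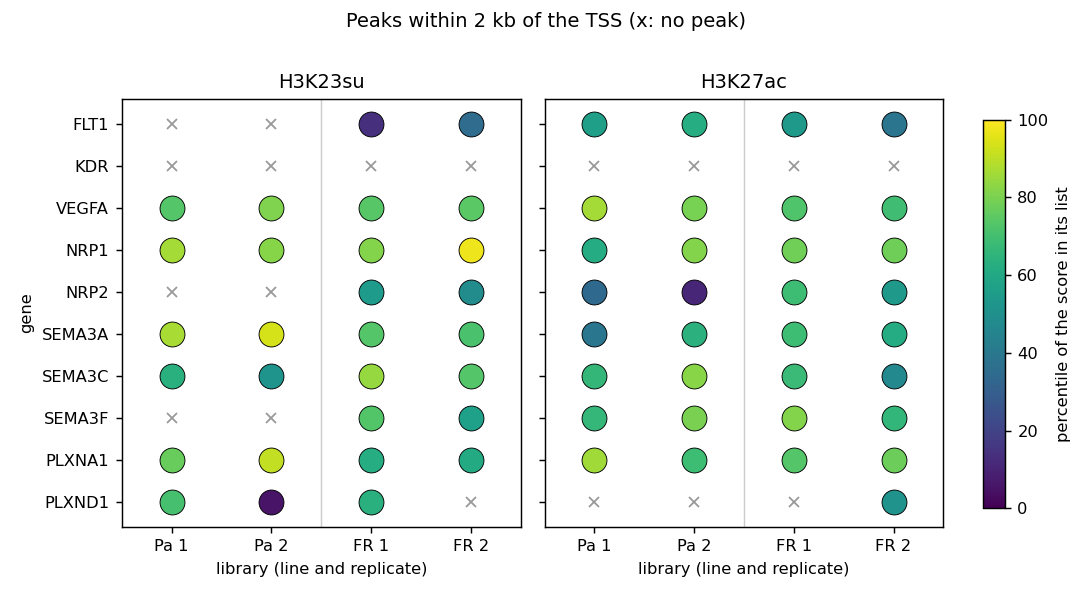
Peaks within 2 kb of the TSS of the 10 genes (rows) in each library (columns), for H3K23su (left) and H3K27ac (right). Circles mark a peak and are coloured by the percentile of the highest score there within its own list, and crosses mark no peak. FLT1, NRP2 and SEMA3F show crosses in both HCT15-Pa columns of H3K23su and circles everywhere else, and KDR shows crosses throughout.

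FLT1, the high-affinity VEGF receptor, lies at chr13:28874483-29069282 on the minus strand in hg19. Its H3K23su TSS peaks in HCT15-FR scored 3.58 and 4.13, at percentiles 13.8 and 35.1 of their lists, so they were among the weaker peaks. H3K27ac spanned the TSS in all 4 libraries, with scores of 4.57 and 4.95 in HCT15-Pa and 4.98 and 4.22 in HCT15-FR, which overlap. The FR-only H3K23su region, with its midpoint in an intron 0.521 kb downstream of the TSS, overlapped this shared H3K27ac region. Its central stretch is shown because H3K23su peaks were called in this region in HCT15-FR alone. The peak of HCT15-FR replicate 2 began inside the stretch, at 29068717. None of the motifs searched, described with the other regions, was found in it (hg19, plus strand, chr13:29068644-29068844).
FLT1 FR-only: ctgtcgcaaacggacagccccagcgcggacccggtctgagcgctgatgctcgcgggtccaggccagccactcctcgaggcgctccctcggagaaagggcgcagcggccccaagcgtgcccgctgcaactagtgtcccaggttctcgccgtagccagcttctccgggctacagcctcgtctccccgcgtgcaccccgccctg

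A second spot near FLT1 went the other way. An intergenic region 69.2 kb upstream of the TSS was Pa-only in both marks, with H3K23su scores of 4.18 and 5.43 and H3K27ac scores of 4.09 and 3.8. Its centre, at chr13:29138331-29138531 on the plus strand of hg19, also held none of the motifs.
FLT1 Pa-only: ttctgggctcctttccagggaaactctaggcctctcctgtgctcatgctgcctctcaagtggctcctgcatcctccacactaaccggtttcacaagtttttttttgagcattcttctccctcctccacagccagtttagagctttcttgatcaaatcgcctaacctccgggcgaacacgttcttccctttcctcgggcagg

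Taking the gene body and 100 kb on either side, which also reaches into PAN3, H3K23su peaks covered 4951 and 4367 bp in HCT15-Pa and 6368 and 5149 bp in HCT15-FR. The lines did not overlap, and the ratio of the means was 1.24, close to the 1.19 of the whole lists. For H3K27ac the lengths were 6675 and 6100 bp against 6312 and 7609 bp, and the lines overlapped. The window held 2 FR-only and 2 Pa-only H3K23su regions and 5 FR-only and 3 Pa-only H3K27ac regions. On chromosome 13 as a whole, Pa-only regions outnumbered FR-only ones in both marks. There 5.56% of H3K23su regions were FR-only and 9.14% Pa-only, and 6.43% and 8.12% of H3K27ac regions.

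KDR, the main signalling receptor for VEGFA in endothelium (chr4:55944648-55991762, minus strand), had no peak of either mark within 2 kb of its TSS or in its gene body in any library. Only the flanks held peaks. H3K23su covered 146 and 878 bp in HCT15-Pa and 379 and 346 bp in HCT15-FR, and H3K27ac 1279 and 2018 bp against 1463 and 1568 bp. HCT15-Pa replicate 2 was the highest in both marks and the lines overlapped. A Pa-only H3K23su region, 59.0 kb upstream of the TSS, overlapped an H3K27ac region present in all 4 libraries.

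VEGFA, the ligand (chr6:43737921-43754224, plus strand), carried both marks at its promoter in every library. The H3K23su peak lay just downstream of the TSS, and the highest score there was 5.19 and 5.62 in HCT15-Pa and 5.69 and 5.79 in HCT15-FR. H3K27ac lay on both sides of the TSS, with highest scores of 8.19 and 6.7 against 6.74 and 6.28. Covered lengths in the window, which includes RSPH9 and MRPS18A, were 10074 and 10846 bp of H3K23su in HCT15-Pa and 11572 and 11883 bp in HCT15-FR, a ratio of 1.12 with no overlap. For H3K27ac they were 14972 and 13987 bp against 15268 and 14328 bp, with overlap. Of its 27 H3K23su regions 9 were present in all 4 libraries and only 1 was FR-only and 1 Pa-only, and of its 33 H3K27ac regions 16 were present in all 4.

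By count, the neuropilins had the most FR-only regions of the 10 genes in both marks. As a share of the regions in the window, FR-only H3K27ac regions were more frequent at SEMA3C (33.3%) and SEMA3A (27.8%). NRP1, co-receptor for VEGFA and SEMA3A (chr10:33466420-33625190, minus strand), had 9 and 6 H3K23su peaks in its window in HCT15-Pa and 19 and 18 in HCT15-FR. They covered 4274 and 4482 bp in HCT15-Pa and 9159 and 9559 bp in HCT15-FR, that is 4378 ± 147 and 9359 ± 283 bp (SD, n = 2), a ratio of 2.14. H3K27ac covered 5355 and 4368 bp against 12506 and 12220 bp, or 4862 ± 698 and 12363 ± 202 bp (SD, n = 2), a ratio of 2.54. In both marks each HCT15-FR library lay above each HCT15-Pa library. The same order held at 57.5% of all genes with a peak for H3K23su and 56.3% for H3K27ac. The NRP1 promoter itself carried both marks in all 4 libraries, and a weak FR-only H3K23su region lay 1.42 kb upstream of the TSS, with scores of 3.65 and 3.51. There were 6 FR-only H3K23su regions among 28 (21.4%) and 7 FR-only H3K27ac regions among 27 (25.9%), with 0 Pa-only regions in both marks.

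At 4 places around NRP1 the region was FR-only in both marks, namely 19.3 kb upstream of the TSS and in introns 75.3, 82.2 and 118 kb downstream of it. The intronic site at 75.3 kb had H3K23su scores of 4.51 and 8.63 and H3K27ac scores of 6.96 and 9.12. The upstream region, intergenic and nearest to the NRP1 TSS, had H3K23su scores of 4.99 and 5.31 and H3K27ac scores of 4.84 and 4.73. Its centre is shown because it ranked highest among the FR-only H3K23su regions of NRP1 and holds an AP-1 motif, in capitals (hg19, plus strand, chr10:33642818-33643018).
NRP1 FR-only: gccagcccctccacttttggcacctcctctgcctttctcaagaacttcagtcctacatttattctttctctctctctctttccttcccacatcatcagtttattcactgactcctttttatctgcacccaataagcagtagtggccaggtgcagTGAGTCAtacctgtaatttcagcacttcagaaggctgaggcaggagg

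A further intronic region 43.2 kb downstream of the NRP1 TSS was FR-only in H3K23su, with scores of 5.37 and 4.61, while H3K27ac was present there in all 4 libraries at 3.34 and 3.34 in HCT15-Pa and 4.64 and 3.93 in HCT15-FR.

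NRP2, the co-receptor for SEMA3F (chr2:206546714-206662857, plus strand), differed at its promoter as well as in its introns. The H3K23su peak over the TSS scored 4.73 and 4.53 in HCT15-FR, at percentiles 54.6 and 48.4, and no peak was called in either HCT15-Pa library. H3K27ac was called over or next to the TSS in all 4 libraries, with scores of 3.84 and 3.35 in HCT15-Pa and 6.22 and 4.98 in HCT15-FR. Both HCT15-FR scores were above both HCT15-Pa scores, and the HCT15-Pa peaks were short, at 296 and 167 bp against 633 and 558 bp.

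**Figure D2:**
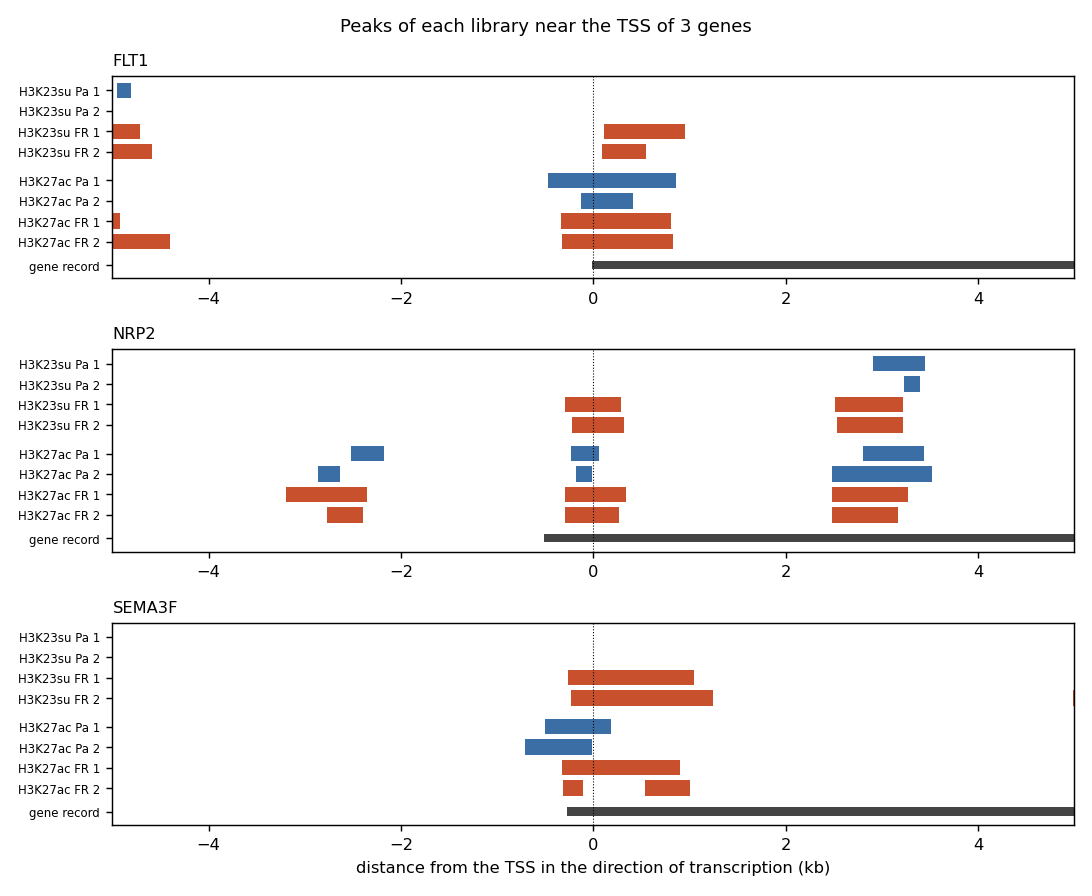
Peaks of each library within 5 kb of the TSS of FLT1, NRP2 and SEMA3F, drawn by distance from the TSS in the direction of transcription (kb), with HCT15-Pa in blue, HCT15-FR in orange and the gene record in grey. Within 2 kb of each TSS, H3K27ac bars appear in all 4 rows and H3K23su bars in the HCT15-FR rows only.

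H3K23su peaks around NRP2 covered 4879 and 3575 bp in HCT15-Pa and 8133 and 7589 bp in HCT15-FR, with means of 4227 ± 922 and 7861 ± 385 bp (SD, n = 2) and a ratio of 1.86. H3K27ac covered 4248 and 5447 bp against 11413 and 11737 bp, with means of 4848 ± 848 and 11575 ± 229 bp (SD, n = 2) and a ratio of 2.39. The lines did not overlap in either mark. FR-only regions numbered 5 among 21 for H3K23su (23.8%) and 7 among 28 for H3K27ac (25.0%), and each mark had 1 Pa-only region. The strongest FR-only H3K27ac region, 65.4 kb into the gene, scored 12 and 10.7 and lay at or above percentile 88.9 of the lists. There H3K23su was called in 3 libraries, at 3.4 in HCT15-Pa replicate 1 and at 6.64 and 4.09 in HCT15-FR.

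NRP2 was FR-only in both marks at 3 places, in introns 20.1 and 81.7 kb downstream of the TSS and at 207 kb, beyond the end of the gene and nearer to the TSS of INO80D. The site at 20.1 kb scored 4.97 and 4.67 in H3K23su and 4.66 and 4.08 in H3K27ac. Its centre is shown with a KLF motif in capitals, read on the reverse strand (hg19, plus strand, chr2:206567213-206567413).
NRP2 FR-only: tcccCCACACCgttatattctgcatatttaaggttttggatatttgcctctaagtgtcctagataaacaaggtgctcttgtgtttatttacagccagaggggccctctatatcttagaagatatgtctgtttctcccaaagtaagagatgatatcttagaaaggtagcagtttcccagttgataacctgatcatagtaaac

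In the same gene, an intron region 62.0 kb downstream of the TSS was Pa-only in both marks, with H3K23su scores of 4.38 and 5.07 and H3K27ac scores of 3.51 and 3.74. It is shown as the counterpart within NRP2, with a GATA motif in capitals, again on the reverse strand (hg19, plus strand, chr2:206609167-206609367).
NRP2 Pa-only: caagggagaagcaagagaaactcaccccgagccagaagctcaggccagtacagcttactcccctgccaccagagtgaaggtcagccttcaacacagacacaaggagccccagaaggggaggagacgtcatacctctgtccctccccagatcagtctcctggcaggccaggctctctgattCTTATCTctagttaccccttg

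SEMA3A, a repellent for growing axons that acts through NRP1 and A-type plexins (chr7:83585093-84122040, minus strand), had both marks at its TSS in every library. The highest H3K23su scores there were 6.15 and 7.25 in HCT15-Pa and 5.68 and 5.55 in HCT15-FR, so HCT15-Pa was higher without overlap, as it was in percentiles of the lists, at 86.8 and 93.4 against 73.3 and 71.1. For H3K27ac the scores were 3.98 and 5.07 in HCT15-Pa and 6.22 and 5.51 in HCT15-FR, but their percentiles of 39.1 and 63.9 against 68.7 and 61.4 overlapped. A small Pa-only H3K23su region lay 1.38 kb upstream of the TSS, where the peaks of both HCT15-Pa libraries shared only a single edge. Covered lengths in the SEMA3A window as a whole were higher in HCT15-FR in both marks. H3K23su covered 5690 and 3855 bp in HCT15-Pa and 6693 and 6294 bp in HCT15-FR, a ratio of 1.36. The H3K23su difference of 1721 bp became 2638.5 bp without HCT15-Pa replicate 1 and 803.5 bp without HCT15-Pa replicate 2, and per base covered in the whole list the lines overlapped. H3K27ac covered 3931 and 3334 bp against 6699 and 5743 bp, a ratio of 1.71. All 5 FR-only H3K27ac regions of SEMA3A were intronic, at 44.1, 70.6, 103, 139 and 209 kb downstream of the TSS, and those at 139 and 209 kb were FR-only in H3K23su too. The site at 209 kb had the higher scores, 5.16 and 7 in H3K23su and 5.54 and 4.86 in H3K27ac. A RUNX motif lay elsewhere in its H3K23su region and near the midpoint of its H3K27ac region. The centre of the H3K23su region held none of the motifs (hg19, plus strand, chr7:83615354-83615554).
SEMA3A FR-only: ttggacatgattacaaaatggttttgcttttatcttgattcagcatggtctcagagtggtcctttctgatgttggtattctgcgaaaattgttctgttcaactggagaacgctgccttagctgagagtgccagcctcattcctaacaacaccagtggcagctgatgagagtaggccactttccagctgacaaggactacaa

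SEMA3C, a semaphorin that binds both neuropilins and signals through PLXND1 (chr7:80371854-80551675, minus strand), showed the largest H3K27ac ratio of the 10 genes. Its promoter carried both marks in all 4 libraries. The H3K23su score there was 4.78 and 4.41 in HCT15-Pa and 6.68 and 5.7 in HCT15-FR, higher in HCT15-FR without overlap, whereas the H3K27ac scores of 5.14 and 7.21 against 6.12 and 4.58 overlapped. Over the window, H3K27ac peaks numbered 3 and 4 in HCT15-Pa and 12 and 11 in HCT15-FR. They covered 1723 and 1415 bp in HCT15-Pa and 6517 and 5875 bp in HCT15-FR, or 1569 ± 218 and 6196 ± 454 bp (SD, n = 2), a ratio of 3.95. H3K23su covered 2409 and 3536 bp against 5553 and 6639 bp, or 2972 ± 797 and 6096 ± 768 bp (SD, n = 2), a ratio of 2.05. The lines did not overlap in either mark. In the gene body, HCT15-Pa had 1 and 0 H3K27ac peaks outside the TSS zone where HCT15-FR had 9 and 8.

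The 5 FR-only H3K27ac regions of SEMA3C lay in its introns at 18.2, 34.2, 35.4, 137 and 148 kb from the TSS, the last being nearer to an annotated TSS of CD36. The H3K23su classes at these sites were not all alike. At 34.3 kb, H3K23su was present in all 4 libraries, with scores of 5.33 and 5.39 in HCT15-Pa and 7.97 and 5.08 in HCT15-FR, while H3K27ac was called in HCT15-FR only, at 6.39 and 5.72. At 137 kb both marks were FR-only, with H3K23su scores of 5.73 and 4.15 and H3K27ac scores of 4.11 and 3.79. This last site is shown, and none of the motifs was found at its centre (hg19, plus strand, chr7:80410839-80411039).
SEMA3C FR-only: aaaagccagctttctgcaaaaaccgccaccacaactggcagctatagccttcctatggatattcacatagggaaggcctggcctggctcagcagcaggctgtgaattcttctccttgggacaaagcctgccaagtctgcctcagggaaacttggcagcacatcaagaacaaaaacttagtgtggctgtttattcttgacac

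**Figure D3:**
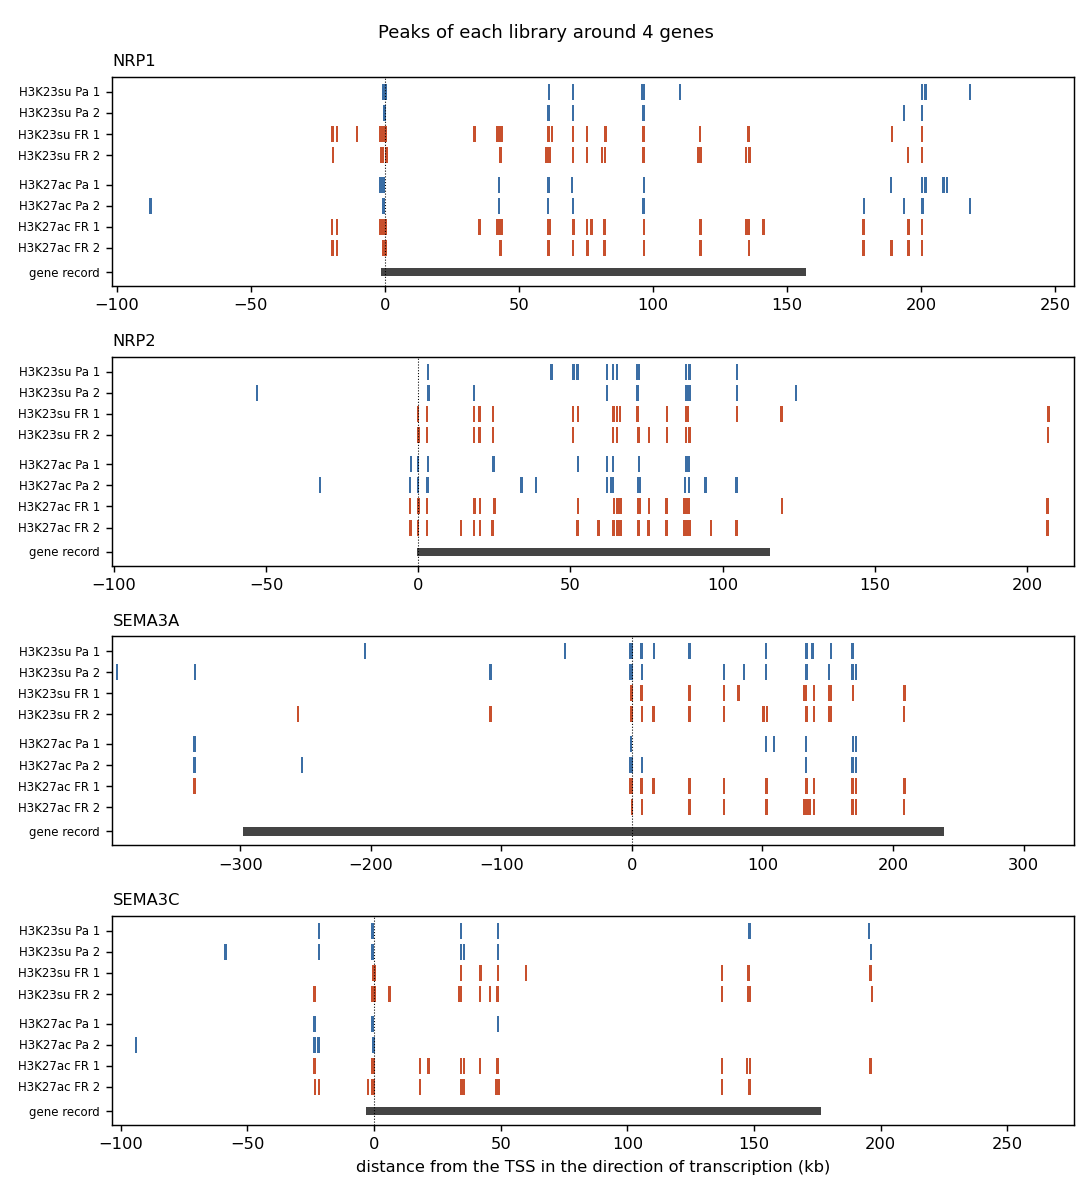
Peaks of each library around NRP1, NRP2, SEMA3A and SEMA3C, drawn by distance from the TSS in the direction of transcription (kb) over the gene record (grey bar) and 100 kb on either side, with HCT15-Pa in blue and HCT15-FR in orange. Very short peaks are drawn at a minimum width. Within the gene bodies of NRP1 and SEMA3C the HCT15-FR rows hold more bars than the HCT15-Pa rows, as in the 12 and 12 against 4 and 3 H3K23su peaks in the body of NRP1.

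SEMA3F, the semaphorin that acts through NRP2 (chr3:50192478-50226508, plus strand), had an FR-only H3K23su peak over its TSS, with scores of 5.64 and 4.82 at percentiles 72.8 and 56.3, the strongest of the 3 promoters of this kind. H3K27ac was called at the TSS in all 4 libraries, at 5.18 and 6.77 in HCT15-Pa and 8.37 and 5.89 in HCT15-FR, which overlap. With any annotated TSS of a gene in place of the canonical one, SEMA3F was no longer FR-only, since another of its 7 start sites had H3K23su in HCT15-Pa. An intronic site 5.24 kb downstream was FR-only in both marks, with H3K23su scores of 4.04 and 4.77 and H3K27ac scores of 4.27 and 3.41. H3K23su covered 7248 and 8833 bp of the window in HCT15-Pa and 15040 and 15071 bp in HCT15-FR, a ratio of 1.87, and H3K27ac 13691 and 14617 bp against 17950 and 18394 bp, a ratio of 1.28. Neither overlapped. The window also reaches 8 other genes, among them SEMA3B and RBM5, and 2 of its 4 FR-only H3K23su regions were nearest to the TSS of another gene.

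The plexins, which carry the semaphorin signal across the membrane, together held 6 Pa-only and 2 FR-only H3K23su regions of 63. Their H3K27ac counts were nearly even, at 5 Pa-only and 4 FR-only of 73, with 2 and 2 at PLXND1. Among all regions, 5.01% were Pa-only and 7.95% FR-only for H3K23su, and 4.53% and 9.08% for H3K27ac. PLXNA1, partner of the neuropilins for SEMA3A (chr3:126701536-126756232, plus strand), had both marks downstream of its TSS in every library. H3K27ac covered 13180 and 13160 bp of its window in HCT15-Pa and 10608 and 11133 bp in HCT15-FR, a ratio of 0.825, and it was the only gene of the 10 with every HCT15-FR library below every HCT15-Pa library. H3K23su covered 11960 and 10500 bp against 10559 and 9817 bp, with overlap. The window held 4 Pa-only H3K23su regions and 1 FR-only region. A Pa-only site 74.0 kb upstream, in an intron of CHCHD6, was so in both marks, with H3K23su scores of 4.57 and 4.22 and H3K27ac scores of 4.71 and 3.95.

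PLXND1, a receptor for SEMA3C and SEMA3E (chr3:129274057-129325519, minus strand), had little at its promoter. A short H3K23su peak in the first kilobases was called in 3 libraries, at 5.04 and 3.38 in HCT15-Pa and 5.12 in HCT15-FR replicate 1, and H3K27ac in HCT15-FR replicate 2 alone, at 4.8. H3K23su covered 8168 and 8567 bp of the window in HCT15-Pa and 7612 and 10140 bp in HCT15-FR, which overlap, and H3K27ac 10765 and 9604 bp against 11137 and 11478 bp, a ratio of 1.11 without overlap.

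**Figure D4:**
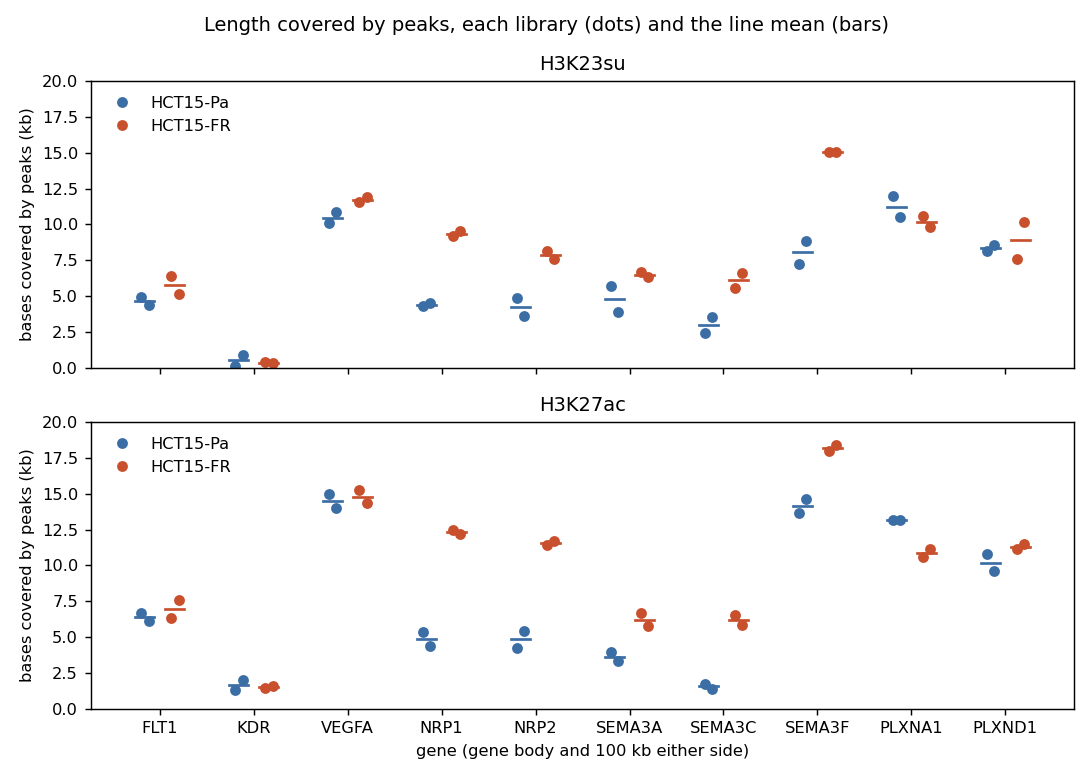
Bases covered by peaks (kb) in the gene body and 100 kb on either side of each gene, for H3K23su (top) and H3K27ac (bottom). Dots are libraries and short bars the mean of the 2 libraries of a line, with HCT15-Pa in blue and HCT15-FR in orange. At NRP1, NRP2, SEMA3A, SEMA3C and SEMA3F the lines do not overlap in either mark, and PLXNA1 lies lower in HCT15-FR in H3K27ac.

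Over the windows of all 10 genes together, H3K23su covered 59799 and 59439 bp in HCT15-Pa and 81068 and 82487 bp in HCT15-FR, or 59619 ± 255 and 81778 ± 1000 bp (SD, n = 2). The ratio was 1.37, above the 1.19 of the whole lists. H3K27ac covered 75819 and 74050 bp against 99873 and 100085 bp, or 74934 ± 1250 and 99979 ± 150 bp (SD, n = 2), a ratio of 1.33. The two-sided exact permutation test gave p = 0.33 for each mark, the smallest that 2 libraries against 2 allow, so no comparison of this design can pass 0.05. Gene by gene, the smallest p after Benjamini-Hochberg adjustment over the 20 exact permutation tests was 0.476. Every HCT15-FR library lay above every HCT15-Pa library for H3K23su at 7 genes (FLT1, VEGFA, NRP1, NRP2, SEMA3A, SEMA3C and SEMA3F), and below at 0, where 57.5% and 12.3% of all genes with a peak did so. For H3K27ac this was so at 6 genes (NRP1, NRP2, SEMA3A, SEMA3C, SEMA3F and PLXND1) and the reverse at 1, against 56.3% and 13.7% of all genes. These shares are near the background, and so is the median ratio of the 10 genes, 1.3 against 1.22 over all genes for H3K23su and 1.2 against 1.16 for H3K27ac. What set single genes apart was the size of the ratio. For H3K27ac, SEMA3C lay at percentile 99.2, NRP1 at 98.0 and NRP2 at 97.7 of all genes with peaks in both lines, and for H3K23su NRP1 lay at 96.9, SEMA3C at 96.3, SEMA3F at 94.5 and NRP2 at 94.3. SEMA3F lay at only 69.0 for H3K27ac, and SEMA3A at 69.0 for H3K23su and 92.5 for H3K27ac. At the other end, KDR, with little covered length, lay at 6.24 for H3K23su and 16.2 for H3K27ac, and PLXNA1 at 14.7 and 10.3. When covered length was divided by the length covered in the whole list, a setting chosen after the data were seen, the small differences at VEGFA and PLXND1 in both marks and at FLT1 in H3K27ac turned to lower in HCT15-FR.

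Counted as merged regions, the windows held 24 FR-only and 13 Pa-only H3K23su regions among 249, that is 9.64% and 5.22%, near the 7.95% and 5.01% of all H3K23su regions. For H3K27ac they held 37 FR-only and 11 Pa-only regions among 269, 13.8% and 4.09%, against 9.08% and 4.53% of all H3K27ac regions. By role, FR-only regions made up 11 of 49 (22.4%) H3K23su and 14 of 55 (25.5%) H3K27ac regions of the neuropilins, each mark with 1 Pa-only region. The semaphorins held 8 FR-only regions of 75 (10.7%) and 2 Pa-only for H3K23su, and 13 of 69 (18.8%) and 0 Pa-only for H3K27ac. Single semaphorins differed in the H3K27ac share, with 33.3% at SEMA3C, 27.8% at SEMA3A and 8.33% at SEMA3F. The VEGF receptors held 2 FR-only and 3 Pa-only of 35 H3K23su regions and 5 and 3 of 39 H3K27ac regions. Most of these regions lie around FLT1 on chromosome 13, where 9.14% of all H3K23su and 8.12% of all H3K27ac regions were Pa-only. The ligand VEGFA held 1 and 1 of 27 and 1 and 2 of 33. The plexins held 2 FR-only and 6 Pa-only of 63 H3K23su regions (3.17% and 9.52%) and 4 and 5 of 73 H3K27ac regions (5.48% and 6.85%). These counts were not tested between roles. By position, 44.6% of the 249 H3K23su regions lay in gene bodies, 50.6% in flanks and 4.82% within 2 kb of the TSS. Of the 24 FR-only regions 16 lay in gene bodies, 4 in flanks and 4 within 2 kb of the TSS, and of the 13 Pa-only regions 1 lay in a gene body, 11 in flanks and 1 within 2 kb of the TSS. Of the 37 FR-only H3K27ac regions 26 lay in gene bodies and 11 in flanks, where 44.6% and 50.9% of all 269 did. The 11 Pa-only H3K27ac regions were more evenly placed, with 6 in gene bodies and 5 in flanks. The nearest TSS was that of the gene itself for 21 of the 24 FR-only H3K23su regions and 30 of the 37 FR-only H3K27ac regions.

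**Figure D5:**
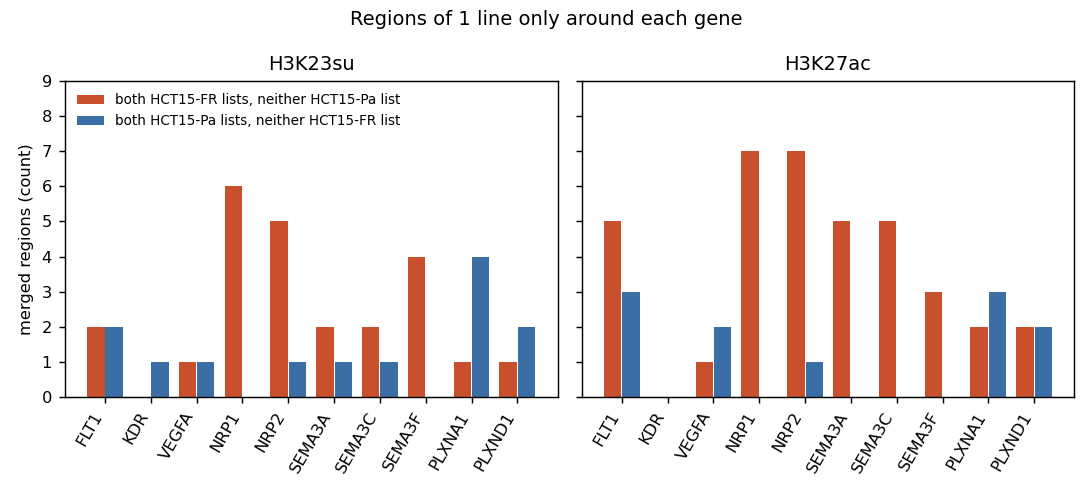
Merged regions found in both libraries of 1 line and in neither library of the other, counted in the window of each gene, for H3K23su (left) and H3K27ac (right). NRP1 and NRP2 have 6 and 5 FR-only H3K23su regions and 7 and 7 FR-only H3K27ac regions, and PLXNA1 has 4 Pa-only H3K23su regions.

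The marks met at many of these regions. H3K27ac was FR-only as well at 11 of the 24 places with FR-only H3K23su, all of them at NRP1, NRP2, SEMA3A, SEMA3C or SEMA3F, and this share was 35.8% over the genome. At another 8 places H3K27ac was found in all 4 libraries, against 17.1% over the genome, and these included the promoters of FLT1, NRP2 and SEMA3F. At 1 place there was no H3K27ac peak. H3K27ac was Pa-only as well at 4 of the 13 places with Pa-only H3K23su, near FLT1, NRP2, PLXNA1 and PLXND1, against 19.8% over the genome.

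Motifs were searched as exact letters on both strands within 100 bp of the midpoint of the named regions, of which up to 2 per gene, class and mark were taken. AP-1 was searched as TGACTCA. Forkhead factors were searched by the letters GTAAACA. The letters used for GATA factors were AGATAAG, while KLF was searched under 2 spellings, first GGCGTGG and in addition the variant spelling GGTGTGG. TEAD was searched by means of CATTCCA, while for RUNX the search used AACCACA. All these are 7 letters long. The AP-1 letters were found in 3 of the 15 named FR-only H3K23su regions, at NRP1, SEMA3C and PLXNA1, and in 0 of the 11 Pa-only regions, where 7.12% of all H3K23su regions hold them in a window of that length. The KLF letters were found in 2 of the 15, at NRP2 and SEMA3A, where 11.2% of all H3K23su regions hold them, and no other motif in more than 1. Anywhere in the region, the AP-1 letters occurred in 5 of those 15 regions and in 1 of those 11, against 16.4% of all, KLF in 3 and 2, against 25.6%, and forkhead, TEAD and RUNX in 2 each of the 15, against 8.65%, 9.94% and 9.81%. Among the 17 named FR-only H3K27ac regions, RUNX was found near the midpoint of 2, at VEGFA and SEMA3A, against 3.78% of all H3K27ac regions, and AP-1 in 1, at NRP1, against 7.74%. Among the 9 Pa-only H3K27ac regions TEAD was found in 2, against 3.94% of all, and KLF in 1, against 11.3%. In the promoters, taken as 250 bases before to 50 after the TSS, only PLXND1 held any of these motifs, the KLF letters, which 17.7% of all promoters hold. A match is a description of the sequence, and the counts are too small to compare classes.

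Of 18 further genes of the pathway, taken as a list of other VEGF ligands, semaphorins, plexins and their effectors, 6 had H3K23su at the TSS in all 4 libraries, 7 had none and 5 had it in some, with 0 FR-only or Pa-only. H3K27ac was at the TSS in all 4 libraries for 8, in none for 7, in some for 2 and FR-only for 1, VEGFB, whose TSS carried H3K23su in all 4. Among all protein-coding genes, 54.7% had H3K23su and 59.0% had H3K27ac at the TSS in all 4 libraries. FR-only TSS peaks were found at 1.87% of all genes for H3K23su and 1.42% for H3K27ac. Covered length of H3K23su was higher in HCT15-FR without overlap for 9, lower for 1 and overlapping for 8. For H3K27ac it was higher for 11, lower for 3 and overlapping for 4. Among all genes with a peak, H3K23su was higher in this sense for 57.5% and lower for 12.3%. The shares for H3K27ac were 56.3% and 13.7%. The windows of SEMA3B, one of the 18, and SEMA3F overlap. PLXNA4, another A-type plexin, was lower in both marks, with 2535 and 2696 bp of H3K23su in HCT15-Pa and 678 and 1077 bp in HCT15-FR, and 4300 and 3790 bp of H3K27ac against 1129 and 1048 bp. PLXNA2, of the same family, went the other way, with 6825 and 6560 bp of H3K23su against 11349 and 10956 bp. Both were named after their values were seen.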

How the data were processed

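CUT&Tag was performed by the authors for H3K23su and H3K27ac in HCT15-Pa and HCT15-FR cells, with 2 libraries per line and mark. Reads were aligned to hg19 with Bowtie2 and filtered with SAMtools, and peaks were called per library with MACS2, in broad mode for H3K27ac. HOMER 4.10 and deepTools are also named in the submitters' processing notes. The threshold and the control of the peak calls are not given in the sources used here. The 8 deposited lists give position and score, the authors' −log10 P value of each peak. They hold no read counts, so the depth is unknown and no counting interval is given. The labels mention spike-in DNA, which does not enter the lists.

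Genes and TSSs came from GENCODE release 44 mapped to GRCh37, the same assembly as hg19, with the TSS of the canonical transcript. For each mark, overlapping or adjoining peaks of its 4 lists were joined into regions, and 1 bp of a library's peak made a region present in that library. A region was called FR-only if both lists of HCT15-FR and none of HCT15-Pa had it, and Pa-only in the opposite case. A peak or region was placed within 2 kb of the TSS, otherwise in the gene body, otherwise within 100 kb on either side. For covered length a two-sided exact permutation test over libraries was used, with Benjamini-Hochberg adjustment over 20 gene and mark comparisons. The regions named are, per gene, mark and class, up to 2 with the highest percentile of the weaker of their peaks, and others are named where both marks share the class. Windows printed are 201 bases from the hg19 sequence, none of them in an annotated UTR. The sequence of 1 further region is not reported here. The genes and lists were chosen with earlier results of these data known. Replicate numbers were not used as pairs in the main test. Across genes, the deviations of same-numbered libraries from their line means correlated at 0.00617 for H3K23su and -0.00106 for H3K27ac. This does not settle whether same-numbered libraries were made together. The work was done in Python 3.11.15 with numpy 2.4.6, pandas 2.3.3 and pysam 0.24.0. As a check of the code, 30 of 30 planted regions were recovered on simulated peaks. These were isolated peaks at TSSs and in flanks, with none in gene bodies, so real lists are harder.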

Additional observations from a re-analysis of the deposited data

How the results depend on the processing

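The total covered length was higher in HCT15-FR in both marks under every alternative tried, with differences between 21449 and 22868 bp for H3K23su and between 24160 and 25929 bp for H3K27ac when each library was left out in turn. With replicate number as a block, the difference was 22158.5 bp for H3K23su and 25044.5 bp for H3K27ac, and the exact sign-flip permutation test gave p = 0.5, the smallest it can give. The differences at NRP1, NRP2, SEMA3A, SEMA3C and SEMA3F stayed positive in both marks throughout. So did the H3K23su difference at FLT1, and the H3K27ac difference at PLXNA1 stayed negative. Those at KDR, VEGFA and PLXND1 in both marks, at FLT1 in H3K27ac and at PLXNA1 in H3K23su changed sign in places, and the cause was not tested. With the stronger 50% of each list, HCT15-FR minus HCT15-Pa became 173 bp at KDR and 440.5 bp at PLXNA1 for H3K23su. With equal numbers of peaks it became -37.5 bp at VEGFA for H3K27ac. With a 50 kb window it became 53.5 bp for H3K23su and 178 bp for H3K27ac at KDR, and -144 bp for H3K23su at PLXND1. With a 10 kb window it became -91.5 bp for H3K23su at PLXND1 and -643.5 bp for H3K27ac at VEGFA. Per Mb covered in the whole list, a setting added after the data were seen, it became -19.1 bp at VEGFA and -27.7 bp at PLXND1 for H3K23su, and -13.3 bp at FLT1, -51.1 bp at VEGFA and -16.6 bp at PLXND1 for H3K27ac. For H3K23su it was 20.3 bp per Mb at SEMA3A and 4.93 bp per Mb at FLT1, with overlapping lines at both. With the stronger 50% of each list the difference stayed positive for H3K23su at NRP2 (1872 bp) and FLT1 (236.5 bp), but the lines overlapped. Leaving out libraries gave ranges across 0 for H3K23su at KDR (-515.5 to 216.5 bp) and PLXND1 (-755.5 to 1772.5 bp), and for H3K27ac at FLT1 (-75.5 to 1221.5 bp), KDR (-502.5 to 236.5 bp) and VEGFA (-174 to 811 bp).

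The stronger 50% of each list left 13 FR-only and 6 Pa-only H3K23su regions and 20 FR-only and 6 Pa-only H3K27ac regions, with fewer peaks by construction. A 50 kb window left 8 Pa-only H3K23su regions. Leaving out a library loosens the classes by construction, and the counts then ran from 34 to 57 FR-only and 17 to 44 Pa-only H3K23su regions, and from 44 to 68 FR-only and 15 to 38 Pa-only H3K27ac regions. Asking for the class within each replicate number is the same rule as the main one. Its counts of 24, 13, 37 and 11 are therefore identical by construction and are no check. At the TSS, the stronger 50% gave 1 FR-only gene for H3K23su, SEMA3F, and 1 for H3K27ac, NRP2. Leaving out a library gave 3 FR-only and 0 to 1 Pa-only genes for H3K23su and 0 to 1 FR-only genes for H3K27ac. The depth of the libraries is unknown, which limits what a missing peak can show.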
